A study of Mus musculus with 9 samples.

Results

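Crosslinking of the high-affinity IgE receptor on a mast cell is carried into the cell by a small set of adaptor proteins that gather phospholipase C gamma at the membrane. The transcripts of 10 such genes were followed here: the membrane-anchored adaptors Lat and Lat2, the cytosolic adaptors Lcp2 and Grap2, the scaffold Gab2, the adaptor Grb2 with the RAS activator Sos1, the exchange factor Vav1, and the enzymes Plcg1 and Plcg2. They were chosen by name for their place in the pathway, with earlier results of these data known. All 10 were found among the 15109 genes in the table.

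The cells were bone marrow-derived mast cells of wild-type C57BL/6 mice, grown in 20% serum and 30% medium conditioned by WEHI-3 cells, which secrete interleukin 3, for at least 4 weeks. Each of the 3 groups held 3 libraries. Control cells were untreated. BSA cells were sensitised with IgE against dinitrophenyl (anti-DNP-IgE) and then given DNP-BSA, the antigen that this IgE binds. Taxinine cells had IgE and antigen too, with taxinine, a diterpenoid of yew, present for 1 h before the antigen. The labels give neither the dose of taxinine nor the length of stimulation, and list no vehicle and no taxinine-only group; the comparison of BSA with Control does not separate sensitisation from antigen. They give neither the sex nor the age of the mice. Nothing in them says that replicates came from separate animals or cultures, so the p-values rest on a spread that may be technical.

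In the textbook account, the kinase SYK phosphorylates the tyrosines of LAT, the product of Lat, which then hold GRB2, GADS (the product of Grap2) and phospholipase C gamma. GADS brings in SLP76, the product of Lcp2, and SLP76 brings VAV1. Phospholipase C gamma cleaves a membrane phosphoinositide into inositol trisphosphate, which releases calcium from internal stores, and diacylglycerol, which activates protein kinase C. Calcium and protein kinase C drive degranulation and cytokine transcription in mast cells.

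Library totals ran from 8975371 counts (Taxinine replicate 1) to 14116976 counts (Control replicate 2), and the members were well above the detection limit, with 688 to 14774 counts in a library. All 12 mast cell markers on the fixed list were present, with a summed level of 55120 to 56640 CPM in Control, 59320 to 61200 in BSA and 59190 to 60490 in Taxinine, where CPM is the read count scaled to library size with TMM factors, which put most genes of all libraries on a common level. Of 12 T cell markers 2 were listed, with a sum of at most 0.909 CPM in any library, and of 8 B cell markers 4 were listed, with a sum of 1.74 to 3.23. The table listed 1 of 8 neutrophil and 0 of 5 fibroblast markers, and 2 of 6 erythroid markers with a sum of 31.9 to 40.6. Sums for the 3 basophil markers were 1317 to 1341 in Control, 1289 to 1336 in BSA and 1200 to 1215 in Taxinine, those for the 5 megakaryocyte markers were 1874 to 1912, 1857 to 1977 and 1796 to 1833, and those for 8 of the 9 macrophage markers were 67.0 to 67.8, 70.0 to 77.1 and 67.0 to 69.7. The sums hide differences between single markers. Of the megakaryocyte list, Itga2b (1696 CPM in Control) and Gp1ba (196) were high, whereas Pf4 (0.873), Gp9 (0.7145) and Ppbp (0.324) were low. From Control to BSA the mast cell markers moved in both directions: Hdc went from 195 to 1208 CPM and Cpa3 from 16930 to 17950, but Ms4a2 from 2179 to 1713. The part of the shifts in marker levels in the values below was not tested. In such bulk samples, fewer cells of a type and less RNA per cell cannot be told apart.

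Resting mast cells held transcripts of every member, and their levels spanned more than an order of magnitude once divided by exon length. Lcp2, at 151 ± 6.49 CPM per kb of exon (mean ± SD, n = 3), stood highest in Control, followed by Lat2 at 135 ± 1.59 and Lat at 94.1 ± 3.57. Grb2 (85.0 ± 4.23), Gab2 (61.9 ± 2.56), Vav1 (53.9 ± 0.580) and Plcg1 (43.8 ± 0.648) came next. Plcg2 at 25.6 ± 0.185, Grap2 at 14.8 ± 0.883 and Sos1 at 6.99 ± 0.729 closed the order. Lcp2 lay above 98.6% of all genes in the table on this scale and Sos1 above 63.8%. The same order held in BSA and in Taxinine, and in none of the groups did the 3 values of a gene overlap those of its neighbour in the order. The length used matters for the places in between. With the longest coding transcript in place of all annotated exons, a measure added after the data were seen, Lat (211) and Lat2 (207) stood above Lcp2 (185) in Control. Under each of the 3 lengths tried the top 3 places in Control were held by Lcp2, Lat2 and Lat, and the lowest 3 by Plcg2, Grap2 and Sos1.

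**Figure D1:**
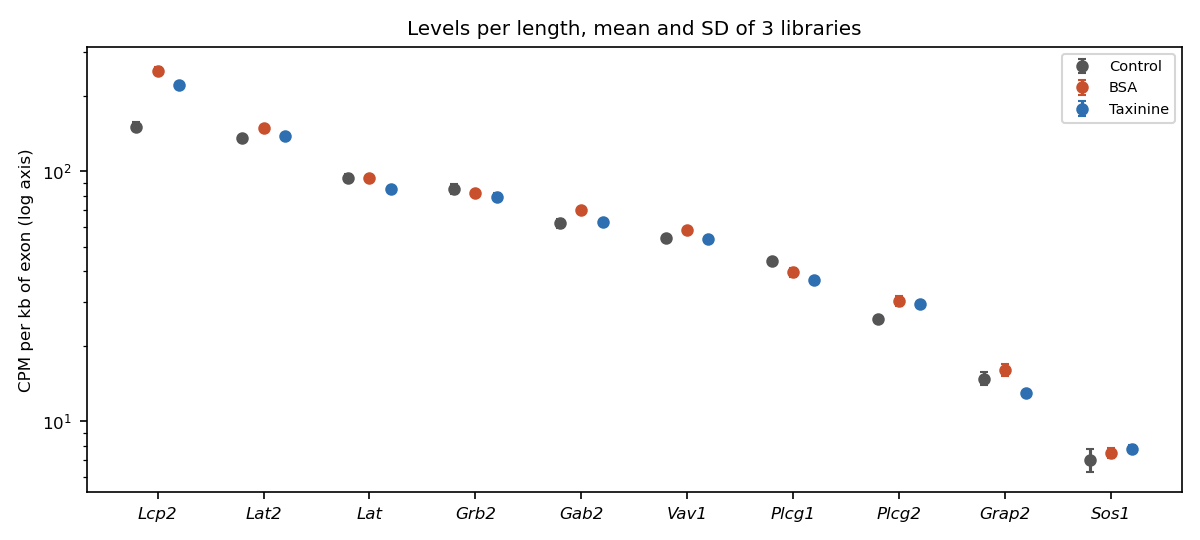
Levels of the 10 genes per length. The vertical axis is CPM per kb of annotated exon on a log scale, points are means and bars are the SD of 3 libraries in each group; Lcp2 stands highest in all 3 groups (151 in Control, 252 in BSA) and Sos1 lowest (6.99 in Control).

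The first comparison, BSA against Control, asks how the adaptor genes themselves responded to IgE and antigen. Lcp2 was the member that moved furthest: it rose 1.67-fold. Plcg2 rose by 18.8%, Gab2 by 12.8% and Lat2 by 10.2%, though Gab2 and Lat2 turned lower under total-count scaling and quantile normalisation, and Plcg1 fell, with a change of -9.95%. The other 5 did not pass edgeR's quasi-likelihood test. Under this test, a gene was called at a Benjamini-Hochberg adjusted p under 0.05 over all 15109 genes, and 4 of the 10 members were called higher and 1 lower. Among all genes 16.2% were called higher and 17.8% lower, and among the 2617 genes within the members' range of mean level (78.6 to 927 CPM) 43.2% were called higher and 12.1% lower. Beside genes of like abundance, the share of members called is therefore near the background. Their median log2 fold change was 0.11 against 0.00 for all genes, and their median absolute change was 0.13 against 0.22.

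**Figure D2:**
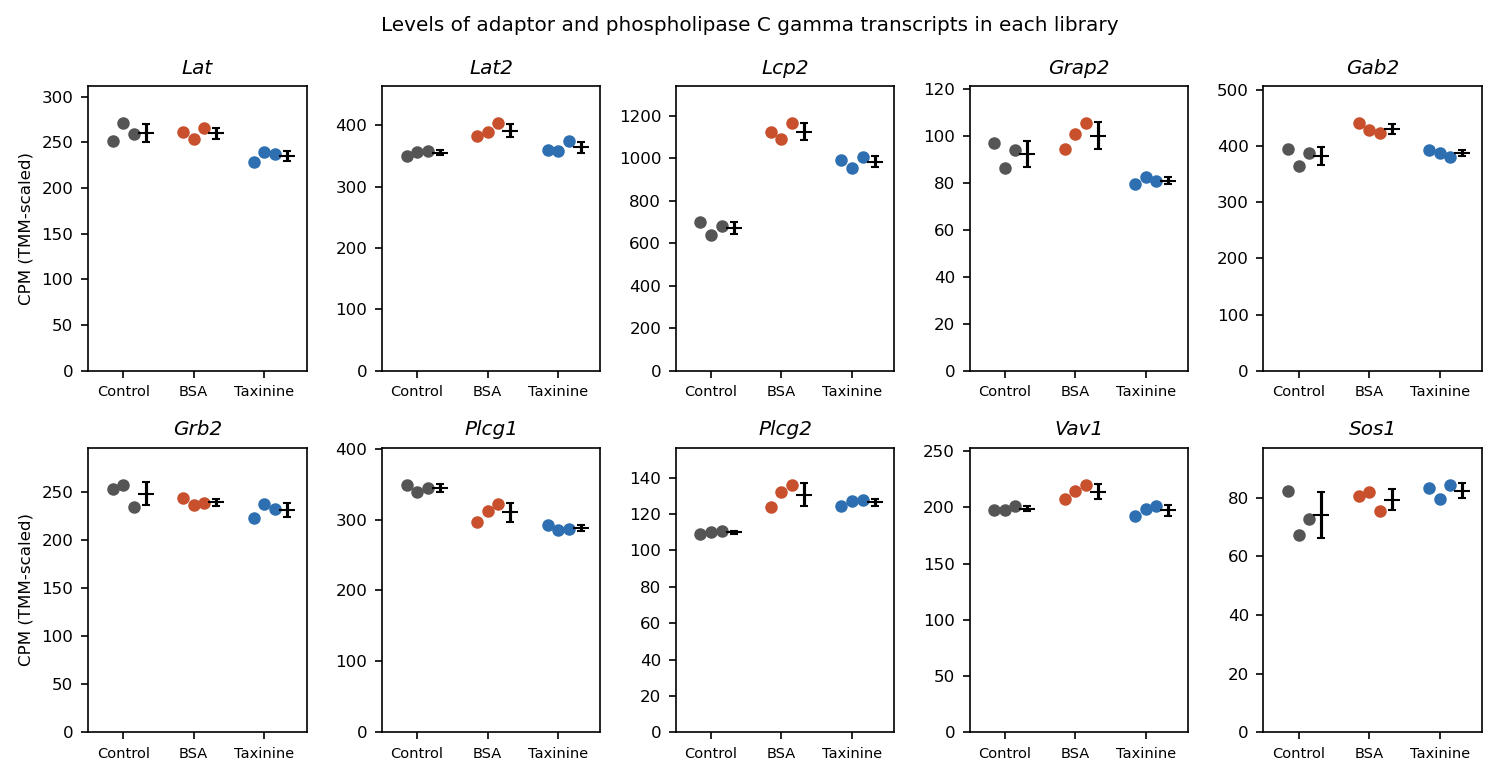
Level of each member in each of the 9 libraries. The vertical axis is TMM-scaled CPM and starts at 0, each dot is 1 library, and the bar beside the dots gives the mean and SD of 3; the 3 groups separate fully for Lcp2 (641 to 698 in Control, 1087 to 1164 in BSA, 953 to 1005 in Taxinine), whereas the 3 groups overlap for Sos1.

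Lcp2 encodes SLP76, the adaptor that ties LAT complexes to phospholipase C gamma and VAV1; the gene lies at chr11:34046920-34092295 (GRCm38, + strand, GENCODE). Its transcript measured 698, 641 and 679.7 CPM in Control replicates 1 to 3, 1122, 1087 and 1164 in BSA, and 993, 953 and 1005 in Taxinine. Each BSA library lay above each Control library by a wide margin. The log2 fold change was 0.74 ± 0.04 (SE; edgeR's quasi-likelihood test, adjusted p = 1.17e-19), larger in size than that of 83.8% of all genes. The rise was called under all 18 alternative settings, at a log2 fold change between 0.34 and 0.77, the lowest with quantile normalisation. An annotated gene on the opposite strand, 4930469K13Rik, shares 282 of the 4459 exonic bases but had only 33 to 57 counts per library.

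The 250 bases before the RefSeq start of Lcp2 (GRCm38.p6, chr11:34046678-34046927, + strand) are shown because this gene carries the main change. Capitals mark matches to 4 short motifs searched on both strands: AP-1 (TGANTCA), the NFAT core (GGAAA), that of GATA factors (motif AGATAA) and the ETS core (GGAAG).
Lcp2: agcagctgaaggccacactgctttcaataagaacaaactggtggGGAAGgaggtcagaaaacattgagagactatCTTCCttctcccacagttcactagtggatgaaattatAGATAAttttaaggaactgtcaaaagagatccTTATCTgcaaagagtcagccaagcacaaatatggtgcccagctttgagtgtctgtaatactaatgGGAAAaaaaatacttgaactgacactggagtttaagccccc
This window held 2 GATA, 2 ETS core and 1 NFAT core match and 0 of AP-1, none of which overlap. Among all 32851 promoter windows of this length, 9.99% hold the GATA motif, 64.1% the ETS core, 55.6% the NFAT core and 6.75% the AP-1 motif. A match is a description of the letters only. The last 8 bases of the window lie within the gene as annotated in GENCODE, which starts at 34046920.

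Grap2 encodes GADS, the partner through which SLP76 is brought to LAT, from chr15:80572594-80652854 (+ strand). Its levels in Control were 97.0, 86.4 and 94.3 CPM, and those in BSA were 94.5, 100.9 and 106. The groups overlapped, and the log2 difference of 0.11 ± 0.05 did not pass the test (adjusted p = 0.0924; 95% interval 0.01 to 0.22). Leaving out Control replicate 1 (0.15; adjusted p = 0.0394) made it a called rise, as did leaving out BSA replicate 1 (0.16; 0.0354), and it was at 0.07 without Control replicate 2 and -0.11 with total-count scaling; adjusted p over the alternatives ran from 0.0354 to 0.939. In reads per library, Lcp2 exceeded Grap2 by 7.19, 7.42 and 7.21 in Control and by 11.9, 10.8 and 11.03 in BSA. Such a ratio within a library does not depend on how libraries are scaled. These groups did not overlap, and the exact permutation test gave a two-sided p of 0.1, the smallest that 3 against 3 can give (0.138 after adjustment over the 18 ratio comparisons made, whose pairs were picked after values were seen).

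Of the membrane adaptors, Lat2 was called higher and Lat was not called; Lat lies at chr7:126363824-126369570 and Lat2 at chr5:134600022-134615025, both on the - strand. Lat measured 251, 271 and 259 CPM in Control and 261, 253 and 265 in BSA, so its groups overlapped, with a log2 difference of -0.00 ± 0.04 (95% interval -0.09 to 0.08; adjusted p = 0.973). Lat was called lower in 4 of the 18 alternatives, at -0.23 with total-count scaling (adjusted p = 1.48e-05), at a like value in both limma fits to log2 values and at -0.25 with quantile normalisation (3.4e-05). Lat2, whose product (NTAL) also binds GRB2, measured 350.3, 356 and 358 in Control and 382, 389 and 403 in BSA. Each BSA value of Lat2 was above each Control value, at a log2 fold change of 0.14 ± 0.04 (adjusted p = 0.00512), but the direction was opposite with total-count scaling (-0.09, not called) and with quantile normalisation (-0.21, called lower at 5.56e-05). Reads of Lat per read of Lat2 were 0.718, 0.760 and 0.722 in Control and 0.683, 0.652 and 0.658 in BSA, which did not overlap (exact permutation p = 0.1, the smallest possible). Of the 2621 exonic bases of Lat2, 952 (36.3%) are shared with Rfc2 on the opposite strand. The strand setting of the counting is not given in the sources used here, so reads there cannot be assigned with certainty; Rfc2 itself was at 355 ± 16.4 in Control and 344 ± 12.9 in BSA.

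GRB2 links phosphorylated LAT to SOS1, which loads RAS with GTP; their genes lie at chr11:115644045-115708597 and chr17:80393751-80480453, both on the - strand. Grb2 measured 253, 257 and 234 CPM in Control and 243, 236 and 238 in BSA, overlapping, with a log2 difference of -0.05 ± 0.04 (adjusted p = 0.388; 95% interval -0.14 to 0.04). Grb2 was called lower in 4 of the 18 alternatives, at -0.28 with total-count scaling and -0.29 with quantile normalisation. Sos1 measured 82.4, 67.2 and 72.6 in Control and 80.6, 82.0 and 75.5 in BSA, also overlapping, at 0.10 ± 0.06 (adjusted p = 0.195). The Control libraries of Sos1 had a coefficient of variation of 10.4%, the widest of any member in any group, where counting error alone gives 2.83% to 3.09%. Without Control replicate 1, the highest of the 3, Sos1 was called higher at 0.19 (adjusted p = 0.0126, against 0.0126 to 0.740 over all alternatives).

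The scaffold GAB2 recruits phosphoinositide 3-kinase, and VAV1 activates RAC; Gab2 lies at chr7:97081586-97308946 and Vav1 at chr17:57279100-57328031, both on the + strand. Gab2 measured 395, 364 and 386 CPM in Control and 440.3, 429 and 423 in BSA, without overlap, at a log2 fold change of 0.17 ± 0.04 (adjusted p = 0.000681). Vav1 measured 197, 198 and 201 in Control and 207, 215 and 220.1 in BSA. The Vav1 groups did not overlap either, yet its log2 difference of 0.11 ± 0.04 did not pass the test (adjusted p = 0.0533; alternatives ranged from 0.0136 to 0.167). Under total-count scaling both were lower in BSA, at -0.05 for Gab2 (not called) and -0.12 for Vav1 (called). Vav1 was called in 7 of the 18 alternatives, in both directions. It was called higher at 0.115 with DESeq2 (adjusted p = 0.0365) and at 0.129 with edgeR without BSA replicate 1 (0.0321), among others. The lowest adjusted p, 0.0136, belongs to a fall of -0.121 in limma on the deposited log2 values. With quantile normalisation Gab2 was called lower, at -0.17 (adjusted p = 0.00097). Of the 10 members 6 had groups that did not overlap, 5 higher and 1 lower. This was so for 42.9% of all genes (20.2% higher and 22.7% lower) and for 58.8% of those of like abundance (45.1% higher and 13.8% lower).

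The phospholipase C gamma genes, at chr2:160731300-160775760 for Plcg1 and chr8:117498291-117635142 for Plcg2, moved in opposite directions. Plcg1, the widely expressed form, measured 349, 339 and 345 CPM in Control and 297, 311 and 322 in BSA, at a log2 fold change of -0.15 ± 0.04 (adjusted p = 0.00333). Plcg2, the form known mainly from blood cells, measured 109, 110.1 and 111 in Control and 124, 132 and 136 in BSA, at 0.25 ± 0.05 (adjusted p = 4.48e-05). Neither pair of groups overlapped. The fall of Plcg1 was called in all 18 alternative settings, between -0.47 and -0.12, but the rise of Plcg2 was not called with total-count scaling (0.02; adjusted p = 0.748). Reads of Plcg1 per read of Plcg2, which no scaling alters, were 3.20, 3.08 and 3.12 in Control and 2.39, 2.36 and 2.37 in BSA. The ratio differed by -0.40 on the log2 scale, with no overlap (exact permutation p = 0.1, the smallest possible). Plcg1 shares 627 of 7857 exonic bases with opposite-strand genes, Zhx3 at 19.3 ± 2.61 CPM and the antisense gene Gm27206 at 1.09 ± 0.176 in Control, both well below its own level.

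The windows before the starts of these enzymes are given because their transcripts diverged; both are on the + strand of GRCm38.p6, from RefSeq, at chr2:160731060-160731309 for Plcg1 and chr8:117498025-117498274 for Plcg2, with the same motifs in capitals.
Plcg1: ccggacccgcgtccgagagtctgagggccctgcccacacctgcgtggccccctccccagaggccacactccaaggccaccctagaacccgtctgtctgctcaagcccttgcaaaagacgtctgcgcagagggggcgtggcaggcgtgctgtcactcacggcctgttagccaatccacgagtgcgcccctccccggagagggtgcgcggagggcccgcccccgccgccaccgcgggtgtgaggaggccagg
Plcg2: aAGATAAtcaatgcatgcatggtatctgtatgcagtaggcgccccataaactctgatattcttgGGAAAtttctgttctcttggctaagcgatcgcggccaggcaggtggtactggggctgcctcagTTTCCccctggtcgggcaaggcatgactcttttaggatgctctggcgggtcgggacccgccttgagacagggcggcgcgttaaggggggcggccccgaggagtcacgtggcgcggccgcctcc
The Plcg1 window held 0 matches to the 4 motifs and had a GC content of 71.2%. The Plcg2 window held 2 NFAT core matches and 1 GATA match, at a GC content of 59.6%, against 41.2% for Lcp2. RefSeq windows were found for 8 of the 10 members, and 0 of their 9 windows (Grb2 has more than 1 start) held the AP-1 motif. In 6 of the 9 the NFAT core was found. Of all promoter windows of this length 55.6% hold the NFAT core and 6.75% the AP-1 motif. All 250 bases of the Grap2 window and of each Grb2 window lie within the gene as annotated in GENCODE. So do the last 10 bases of the Plcg1 window. No match says only that these letters are not in this window.

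**Figure D3:**
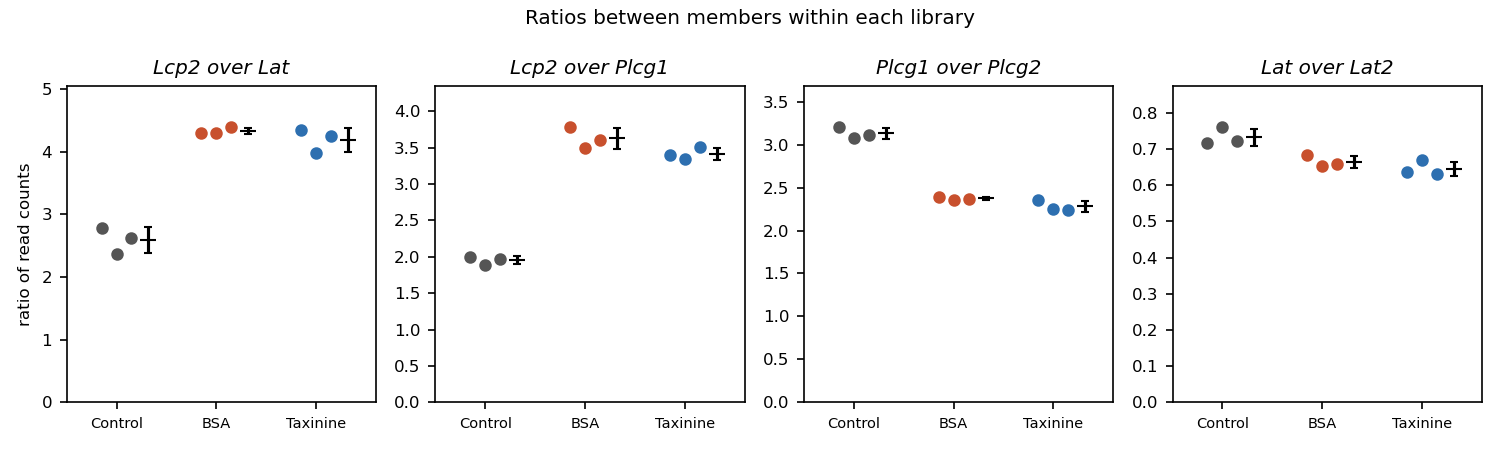
Read-count ratios between pairs of members within each library. The vertical axis is the ratio of read counts from 0, dots are libraries and bars the mean and SD of 3; Plcg1 over Plcg2 was 3.08 to 3.20 in Control against 2.36 to 2.39 in BSA and 2.24 to 2.35 in Taxinine, and Lcp2 over Lat was 2.37 to 2.77, 4.29 to 4.39 and 3.97 to 4.34.

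The second comparison, Taxinine against BSA, asks how stimulated cells differed when taxinine had been present. Grap2, Lcp2, Gab2 and Lat were called lower, at -19.1%, -12.5%, -10.3% and -9.50% relative to BSA, and no member was called higher. Thus 4 of 10 were called lower and 0 higher. Among all genes 4.12% were called lower and 2.86% higher, and among genes of like abundance 11.3% and 5.01%. In 7 of the 10 every Taxinine library lay below every BSA library, against 12.4% of all genes and 24.1% of those of like abundance. The median log2 difference of the members was -0.11 against 0.00 for all genes. All changes were small: the median absolute change was 0.11, against 0.13 for all genes. In 9 members the fitted difference was below 0, Sos1 being the exception.

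Grap2 fell furthest. Its Taxinine libraries measured 79.6, 82.6 and 80.8 CPM, below the 94.5 to 106 of BSA and below the 86.4 to 97.0 of Control as well. The log2 fold change was -0.31 ± 0.06 (adjusted p = 0.000182), and Grap2 was called under all 18 alternatives, between -0.35 and -0.27. Lcp2 fell from 1124 ± 38.4 to 984 ± 27.6 CPM, a log2 fold change of -0.19 ± 0.04 (adjusted p = 0.00108), likewise called under all 18 alternatives (-0.22 to -0.16). The Taxinine level of Lcp2 stayed above every Control library. Lcp2 reads per Grap2 read were 12.5, 11.5 and 12.4 in Taxinine and overlapped those in BSA.

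The calls for Gab2 and Lat were less firm. Gab2 measured 392, 387 and 381 CPM in Taxinine, under each BSA library, at -0.16 ± 0.04 (adjusted p = 0.0123). It was no longer called without BSA replicate 1 (adjusted p = 0.0582), Taxinine replicate 2 (0.0616) or Taxinine replicate 3 (0.0818) and with quantile normalisation (0.178). Lat measured 229, 239.7 and 237, at -0.14 ± 0.04 (adjusted p = 0.0339). Lat was called in 8 of the 18 alternatives. It lost the call with total-count scaling (0.0926), in limma on the deposited values (0.0736) and with a pseudocount of 0.5 (0.074), with quantile normalisation (0.127), and without any 1 of Control replicate 3 (0.0548), BSA replicates 1 (0.0791) and 3 (0.111) and Taxinine replicates 1 (0.175), 2 (0.0773) and 3 (0.0957). The count of members called was accordingly 2 without BSA replicate 1, Taxinine replicate 2 or Taxinine replicate 3.

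The remaining 6 members did not pass the test. Lat2 (359, 359 and 374 CPM in Taxinine; -0.10 ± 0.04), Plcg1 (293, 285 and 287; -0.11 ± 0.04) and Vav1 (192, 198 and 201; -0.12 ± 0.04) lay below BSA in every library, with adjusted p of 0.127, 0.132 and 0.110 by edgeR's quasi-likelihood test. Grb2 (223, 237 and 232), Plcg2 (124, 127 and 128) and Sos1 (83.2, 79.7 and 84.5) overlapped BSA, at -0.05 ± 0.04, -0.05 ± 0.05 and 0.05 ± 0.06. The 95% intervals for these were -0.14 to 0.04 for Grb2, -0.14 to 0.05 for Plcg2 and -0.07 to 0.18 for Sos1, so a shift beyond 0.18 in either direction lies outside each. Reads of Plcg1 per read of Plcg2 were 2.35, 2.25 and 2.24, all below the BSA libraries by a small step of -0.06 on the log2 scale (exact permutation p = 0.1, the smallest possible).

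**Figure D4:**
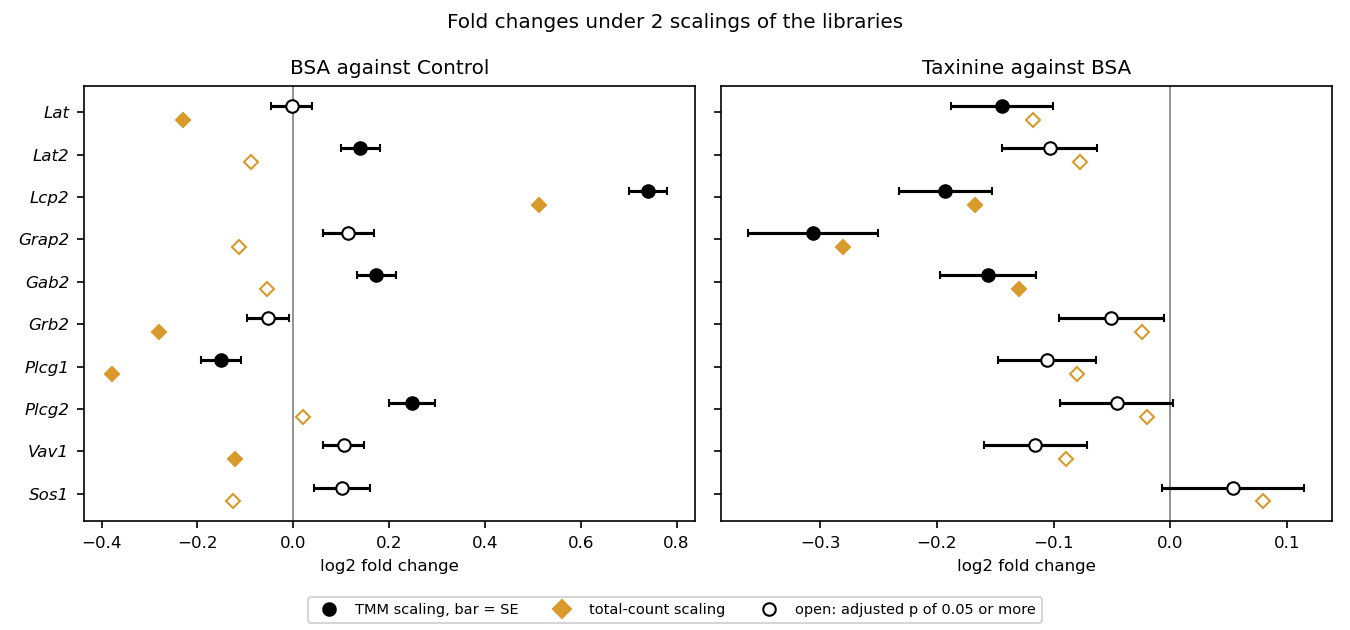
Log2 fold changes of the members in BSA against Control and in Taxinine against BSA. Circles are edgeR values with TMM scaling and bars their SE, diamonds are values with total-count scaling, and open symbols did not reach an adjusted p under 0.05; under total-count scaling Lat2, Grap2, Gab2, Vav1 and Sos1 turn below 0 in BSA against Control, while in Taxinine against BSA no member changes direction.

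Set directly against Control, with which the first comparison shares its untreated libraries, Taxinine cells had 6 of 10 members called, 3 higher and 3 lower. Of all genes 33.1% were called, 15.9% higher and 17.2% lower (39.4% and 14.6% among genes of like abundance). Lcp2 was higher at 0.55 ± 0.04, Plcg2 at 0.20 ± 0.05 and Sos1 at 0.16 ± 0.06 (adjusted p = 3.6e-15, 0.000864 and 0.0407 by edgeR's quasi-likelihood test). Plcg1 was lower at -0.26 ± 0.04, Grap2 at -0.19 ± 0.05 and Lat at -0.15 ± 0.04 (adjusted p = 3.07e-06, 0.00545 and 0.00664). The calls of Lcp2, Plcg1 and Grap2 held under all 18 alternatives, whereas Plcg2 was at 0.000687 with total-count scaling. Sos1, whose Control and Taxinine libraries overlapped, was at -0.05 with total-count scaling. It lost its call without each of Control replicates 2 (adjusted p = 0.287) and 3 (0.129) and Taxinine replicates 1 (0.0967), 2 (0.0504) and 3 (0.158), and Lat without Taxinine replicate 1 (0.0542). Gab2 (0.02 ± 0.04), Vav1 (-0.01 ± 0.04), Lat2 (0.04 ± 0.04) and Grb2 (-0.10 ± 0.04) did not pass. With total-count scaling all 4 were called lower, at -0.18, -0.21, -0.16 and -0.31. Grb2 was called lower in 6 of the 18 alternatives, among them the fit to these 2 groups only (adjusted p = 0.0427) and that without Control replicate 3 (0.0267).

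Across the 9 libraries, the genes whose centred log2 profile lay nearest to that of Lcp2 were Arl4c (distance 0.0844 log2 units, Pearson r = 0.996), Myo1c (0.162, r = 0.990) and Eif4e (0.171, r = 0.989). Nearest to Plcg2 were Wdr1 (0.0690, r = 0.979), Apbb1ip (0.0808, r = 0.971) and Zyx (0.0872, r = 0.970). These are descriptions over libraries that share groups and scaling, picked as the closest of all genes. Arl4c, a small GTPase of the ARF family, went from 295 CPM in Control to 491 in BSA and 429 in Taxinine.

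The neighbours of the members in the pathway were described from 5 lists of 107 genes, 102 of them in the table. In BSA against Control 28 were called higher and 13 lower (40.2% called, against 34.0% of all genes), with a median log2 change of 0.09. This split depends on the scaling: 8 were called higher and 43 lower with total-count scaling, and 16 and 28 with quantile normalisation. Of all 15109 genes, 1081 were called higher and 6896 lower with total-count scaling, and 1898 and 3126 with quantile normalisation. With TMM scaling, 16.2% of all genes were called higher and 17.8% lower. Among genes within the members' range of mean level the shares were 43.2% and 12.1%. The neighbours were not matched to other genes by level. Of the 28 other adaptors measured, 8 rose and 6 fell, against 2 and 11 with total-count scaling. Stap1, an adaptor that binds phosphorylated receptors, rose by 0.52 ± 0.05 and the SH2 and SH3 adaptor Nck2 by 0.37 ± 0.06, whereas Themis2 (-0.70 ± 0.12) and Crkl (-0.35 ± 0.06) fell. Of 13 paralogues of the members or of phospholipase C, 4 rose and 1 fell (1 and 2 with total-count scaling), among them Plcb4 (0.46 ± 0.09), the Gab2 relative Gab3 (0.38 ± 0.08), and Plcb3 (-0.29 ± 0.07). The rise of Gab3 was not called with total-count scaling. Gab1, Gab3, Grap and Blnk stand both among the other adaptors and among the paralogues, so the rise of Gab3 is counted in each.

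Of 25 genes that act on the products of phospholipase C, 6 rose and 3 fell, against 2 and 8 with total-count scaling. Over all 15109 genes, 16.2% were called higher and 17.8% lower with TMM scaling. Among genes within the members' range of mean level these shares were 43.2% and 12.1%. With total-count scaling 1081 of all genes were called higher and 6896 lower. Prkd2, a kinase activated by diacylglycerol and protein kinase C, rose by 0.99 ± 0.06. Itpkb, which phosphorylates inositol trisphosphate, rose by 0.86 ± 0.05, and the diacylglycerol kinase genes Dgke (-0.68 ± 0.10) and Dgkz (-0.25 ± 0.04) fell. Of 26 genes of small GTPase signalling 6 rose, among them Wipf1 (0.42 ± 0.04), and 2 fell, Rasal3 (-0.44 ± 0.05) and Araf (-0.30 ± 0.05); with total-count scaling the counts were 2 and 14. The rise of Wipf1 was not called with quantile normalisation (0.06). Of the 14 receptor subunits, kinases and phosphatases upstream, 5 rose and 1 fell, against 1 and 8 with total-count scaling. Ms4a2, the receptor beta chain, fell by 0.35 on the log2 scale.

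In Taxinine against BSA, 10 of the 102 were called lower and 2 higher (11.8% called, against 6.98% of all genes). By direction, 4.12% of all genes were called lower and 2.86% higher. Among genes within the members' range of mean level the shares were 11.3% and 5.01%, and the neighbours were not matched by level. Nck2 fell by 0.38 on the log2 scale (SE 0.06), the TEC-family kinase Tec by 0.31 (SE 0.06), the protein kinase C gene Prkcq by 0.32 (SE 0.06) and Itpkb by 0.27 (SE 0.05). Crkl (0.21 ± 0.06) and Rras2 (0.54 ± 0.16) were the pair called higher, and both lost the call under some alternatives. None of the 13 paralogues was called by edgeR's quasi-likelihood test, and none had an unadjusted p under 0.05 except Plcb3 (0.17 ± 0.07; adjusted p = 0.167). The count of 12 was 7 with DESeq2, 6 without Taxinine replicate 1 and 7 without Taxinine replicate 3.

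**Figure D5:**
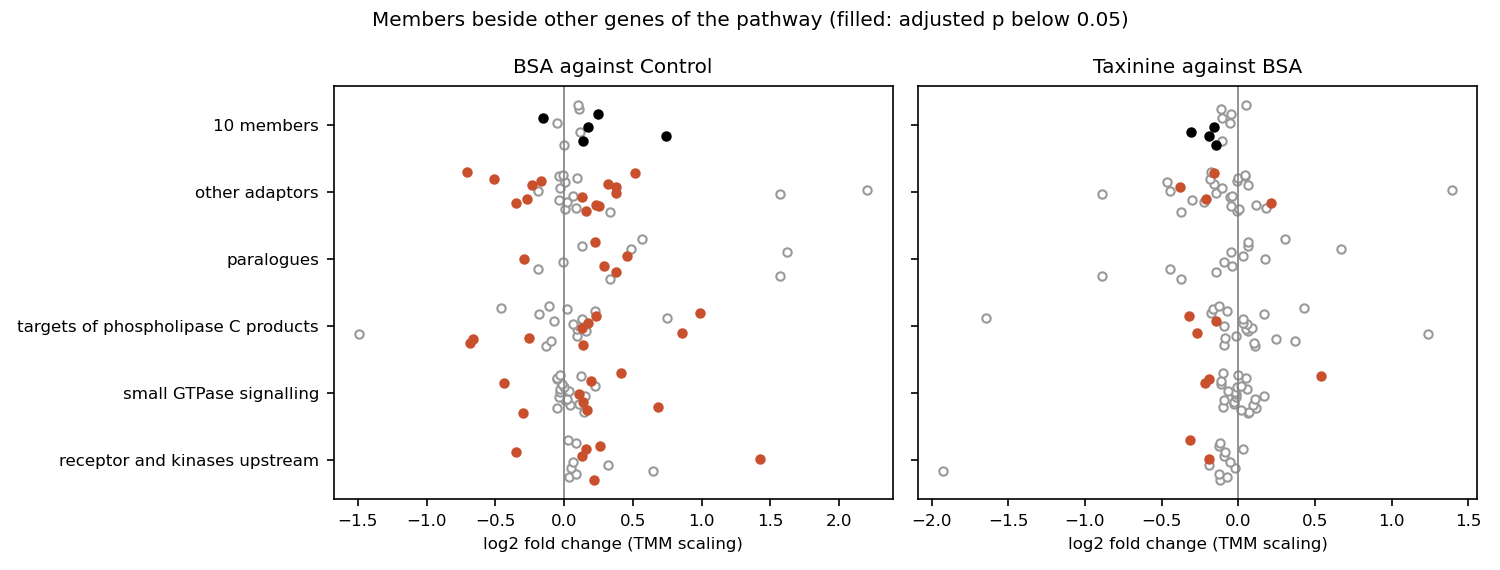
Log2 fold changes of the 10 members and of the 102 measured pathway neighbours, by list. Gab1, Gab3, Grap and Blnk are drawn both among the other adaptors and among the paralogues. The horizontal axis is the edgeR log2 fold change with TMM scaling, each dot is a gene, and filled dots have an adjusted p below 0.05; the members lie between -0.15 and 0.74 in BSA against Control and between -0.31 and 0.05 in Taxinine against BSA.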

How the data were processed

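Stranded poly(A) libraries of 9 samples were read as pairs of 101 bases, per the labels' protocols. STAR 2.7.0f and limma 3.11 and the builds mm10 and GRCm38 are named in the submitters' processing notes; which annotation and counting program were used is not stated there or in the labels. The authors deposited a table of whole-number read counts for 15109 genes, whose name speaks of TMM normalisation but whose totals and small counts show no sign of scaling, and a table of log2 values that equals log2(CPM + 1) of those counts to within 5e-05. Counts were used as deposited.

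Groups were compared with edgeR 4.0.16 (R 4.3.3) by its quasi-likelihood test, with TMM factors (0.941 to 1.11) and 1 fit over 9 libraries. No replicate term was used, and Benjamini-Hochberg adjustment ran over all genes. The TMM factors were split by group without overlap: 1.1022 to 1.1071 in Control, 0.9405 to 0.9473 in BSA and 0.9571 to 0.9628 in Taxinine. SE values follow from the test statistic. Alternatives used limma 3.58.1, DESeq2 1.42.0, other scalings, a low-count filter, and fits without each library. The procedure was tested on simulated data in which few genes changed, with rises and falls in balance. Those data held no shift between groups over most genes, so they do not test the choice of scaling. Exon lengths come from GENCODE M21 (GRCm38), which holds 15106 of the identifiers, and promoter windows from RefSeq (GRCm38.p6). Intervals cover the fit's error; at these totals 3 counts in 1 library correspond to 0.192 to 0.347 CPM. The members and lists were chosen with earlier results of these data known. Named beyond the members are up to 4 genes of each list with the smallest p in each of the first 2 comparisons, and the 3 genes nearest in profile to the 2 members with the largest change; some of these are not reported here. No pairing of the samples by replicate number was seen (see the closing section).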

Additional observations from a re-analysis of the deposited data

How the results depend on the processing

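Total-count scaling turned 5 of the 10 members in BSA against Control, and 23 of the 180 recomputed member values reversed: with total-count scaling the median over all genes went from 0.00 to -0.23, and the split of called members from 4 higher and 1 lower to 1 higher and 4 lower (47.6% against 13.6% higher among all called genes; neighbours 28 higher and 13 lower against 8 and 43). In Taxinine against BSA that share went from 40.9% to 57.6%. With total-count scaling, Lat2 (-0.0871), Grap2 (-0.113), Gab2 (-0.054), Vav1 (-0.122), Sos1 (-0.125) and Btk (-0.00883) reversed; with limma on the deposited values these were -0.0868, -0.11, -0.0535, -0.121, -0.122 and -0.00833, and with a pseudocount of 0.5 -0.0869, -0.111, -0.0536, -0.121, -0.123 and -0.00831. Quantile normalisation gave -0.208 for Lat2, -0.173 for Gab2 (both called lower), -0.0869 for Vav1 and -0.0466 for Btk. Lat, whose difference was near 0, turned to 0.00658 with DESeq2-type size factors, 0.00652 with DESeq2, 0.00084 with low counts filtered, 0.0271 without Control replicate 2 and 0.015 without BSA replicate 2 (range over the left-out libraries -0.0271 to 0.0271), but was called lower at -0.23 with total-count scaling, -0.229 with limma and -0.247 with quantile normalisation. In Taxinine against Control, total-count scaling gave -0.164 for Lat2, -0.184 for Gab2 and -0.0458 for Sos1; limma on the deposited values gave -0.165, -0.183 and -0.0418, with Plcg2 at -0.000167; a pseudocount of 0.5 gave -0.165, -0.183 and -0.042, with Plcg2 at -0.000143; quantile normalisation gave -0.244 for Lat2 and -0.266 for Gab2. There Gab2 ranged from -0.0159 (without Control replicate 2) to 0.0418 and Vav1 from -0.0258 to 0.00942 (without Taxinine replicate 1) over the left-out libraries; Vav1 was called lower at -0.211 with total-count scaling, -0.212 with limma and -0.177 with quantile normalisation.

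In Taxinine against BSA the 4 called members became 2 with quantile normalisation, and 2 to 4 when each library was left out in turn; the 12 called neighbours became 7 with DESeq2 and 6 to 14 without each library. No member changed direction there in 180 recomputed values, of which 14 lost a call. Over all genes, 7977 (total-count scaling) and 7852 (limma) were called in BSA against Control, against 5144, and 659, 616 and 699 in Taxinine against BSA without Taxinine replicates 1, 2 and 3, against 1055. The cause was not tested. Of the places in the order of levels per kb in Control, 4 of 10 were kept with the median transcript length and 6 with the longest coding transcript.

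Same-numbered replicates did not deviate together (correlations from -0.20 to 0.11 over 9868 genes, above 0.1 in 1 of 9 pairs). Pairs with different numbers ran from -0.197 to 0.215. A library correlated best with its own number in 5 of 18 cases. These values cannot exclude a pairing that the labels do not give. With the replicate number as a block, 5, 4 and 6 members were called in the 3 comparisons and 5078, 1093 and 4972 genes in all, against 5144, 1055 and 5008 without it; 40, 13 and 42 neighbours were called, against 41, 12 and 41.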

Other observations

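Within the BSA group, replicate 3 had the highest level of 7 of the 10 members after TMM scaling and replicate 1 the lowest of 5. Within Taxinine, replicate 3 was highest for 5 and replicate 1, the library with the fewest counts, lowest for 5. The part of this in the results was not tested.

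The antisense gene Gm27206, which overlaps Plcg1 on the opposite strand, went from 1.09 ± 0.176 CPM in Control to 0.243 ± 0.132 in BSA, on 2 to 19 counts per library (log2 fold change -2.11 ± 0.50, adjusted p = 0.000758 by edgeR's quasi-likelihood test; chosen after its values were seen). On the same strand as Gm27206, Zhx3 rose by 0.32 ± 0.09 (adjusted p = 0.00371). 4930469K13Rik, opposite to Lcp2, went from 2.22 ± 0.049 to 3.89 ± 0.937 CPM (0.80 ± 0.21, adjusted p = 0.00186), the direction of Lcp2 itself; whether these reads belong to the antisense or the sense gene cannot be told apart without the strand setting.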
